A study of Mus musculus with 22 samples.

Results

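Astrocytes are shaped by intermediate filaments, and the RNA of the genes that build and anchor these filaments was examined in 22 single mouse astrocytes. The set was defined by name and holds 8 of the 23453 genes in the count table, chosen as the filament proteins of astrocytes in the cytoplasm (*Gfap*, *Vim*, *Nes* and *Synm*), the lamins of the nucleus (*Lmna*, *Lmnb1* and *Lmnb2*) and the cross-linker plectin (*Plec*). The rule used gene names and no level, although the set was proposed with earlier results of these data known. All 8 passed the filter of a read in at least 5 cells, as did 12719 genes in all.

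The cells came from primary cortical cultures of newborn C57BL/6 pups (P0-P1) with no genetic modification. Every culture had been shaken, treated with cytosine arabinoside, which kills dividing cells, and deprived of serum before imaging, and every cell had been loaded with a calcium dye and exposed acutely to EtOH, so that there were no cells without EtOH. The response sorted the cells into 6 S-type cells with a sustained calcium signal, 6 T-type cells with a transient signal, 5 M-type cells with a mixed signal and 5 nonresponsive (NR) cells. Each cell was drawn up singly and its RNA amplified in 2 rounds before sequencing. The time between EtOH and collection is not given per cell, and neither is the animal or the culture. Each type therefore counted as 1 sample, no test between types was run, and all differences below are descriptions of these cells.

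Intermediate filaments are ropes of coiled-coil proteins that give a cell its mechanical strength. GFAP is the filament protein that defines mature and reactive astrocytes, vimentin is its partner and predominates in immature and cultured astrocytes, and nestin and synemin join these filaments without forming filaments of their own. Lamins A/C, B1 and B2 form the mesh beneath the nuclear membrane, and plectin ties cytoplasmic filaments to actin, to junctions and to the nuclear surface.

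Members of this family resemble each other most at the end of the helical rod, so it was checked whether a read of 75 bases could be placed on more than 1 gene in GRCm38 (GENCODE vM21). No run of 75 exonic bases of *Gfap*, *Vim*, *Nes*, *Lmna*, *Lmnb1* or *Lmnb2* occurred in another annotated gene. *Synm* shared 4.51% of its 75-base runs with *Gm45102* and *Ttc23*, which overlap it on the opposite strand, and *Plec* shared 0.721% with *Parp10*, which overlaps it on the same strand. The sources used here do not say whether counting used the strand, so reads of *Synm* and its antisense neighbours may not be separable in that small part.

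A cell had between 2937786 and 22131076 reads over all genes, and the T-type cells had the widest range, with size factors from 0.183 to 1.56. No 2 of the 22 cells had identical counts. All 12 astrocyte marker genes were detected, 9 of them in every cell (*Slc1a3*, *Slc1a2*, *Aqp4*, *Aldh1l1*, *Glul*, *Sox9*, *Gja1*, *Fabp7* and *Slc4a4*). Genes from the marker lists of other cells were read too. The summed mural cell and fibroblast list (9 genes, led by *Acta2* and *Tagln*) reached 9436.7 counts per 1000000 reads (CPM) among the S-type cells, where its lowest value was 543.5, and it spanned 114.9 to 5133.0 CPM among T-type cells, 34.2 to 3131.5 among M-type cells and 219.9 to 2175.0 among NR cells, with no read of *Rgs5* in any cell. The microglia list (11 genes) reached at most 128.7 CPM, in an NR cell, the oligodendrocyte lineage list (9 genes, led by *Olig1* and *Olig2*) at most 3329.4 CPM, in a T-type cell, and the neuron list (7 genes, led by *Stmn2*) at most 2076.2 CPM, in an S-type cell. The endothelium list (6 genes) reached at most 37.4 CPM in an S-type, 5.01 in an M-type and 10.2 in an NR cell, and was highest in a T-type cell. *Sox10*, *Cldn5* and *Cdh5* had no read. The highest sums came mostly from the leading genes of a list. *Acta2* and *Tagln* had 7388.8 and 2026.3 CPM in S-type cell 5, where the mural cell and fibroblast sum was highest. *Olig1* had 3201.7 CPM in T-type cell 3, and *Stmn2* had 2047.8 CPM in S-type cell 2. A high sum therefore does not show that the other genes of its list were read, and it does not identify a cell.

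In these cells the 8 genes spanned a wide range of levels. The level of a gene in a cell is its count divided by the size factor of the cell, called the normalized count below. Per kilobase of exon, the median over 22 cells was 22312 for *Vim*, 333.3 for *Nes*, 75.04 for *Gfap*, 60.1 for *Lmna*, 46.7 for *Synm*, 3.38 for *Lmnb1*, 2.03 for *Plec* and 1.63 for *Lmnb2*. *Vim* was the highest of the 8 in 22 of 22 cells, and its lowest cell, at 6985 per kilobase, was above the highest cell of *Nes*, at 3883. Below *Vim* the ranges of neighbours in this order overlapped. Amplification from the 3′ end can lower the value per kilobase of a long transcript, and the merged exons of *Plec* cover 18.1 kb.

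**Figure D1:**
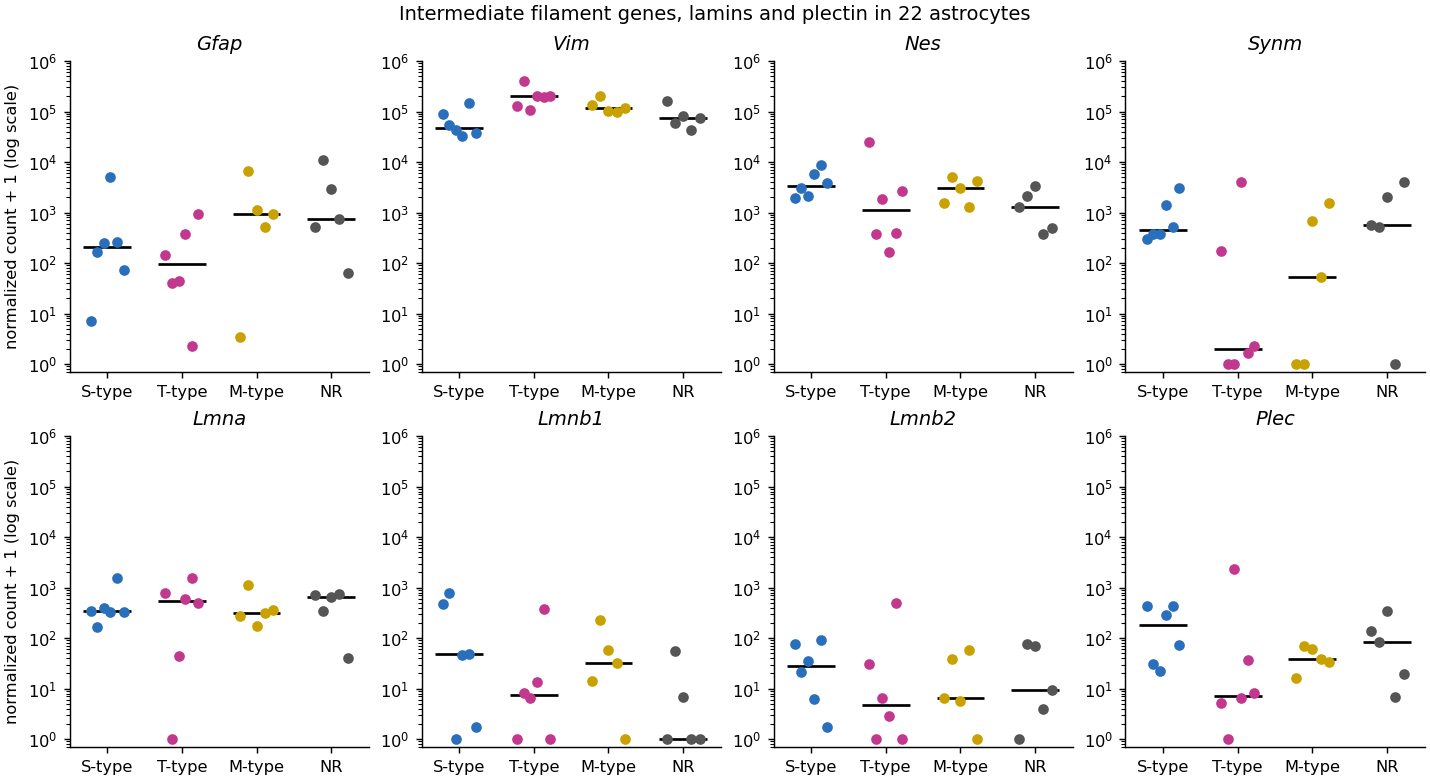
Normalized count plus 1 (log scale) of each of the 8 genes in every cell, by response type, with 1 point per cell and a line at the median of the type. *Vim* points lie in a narrow band near the top, *Gfap* and *Synm* points spread over several powers of 10, and the T-type panels of *Nes*, *Synm*, *Lmnb1*, *Lmnb2* and *Plec* each hold 1 point far above the rest.

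Vimentin RNA was the most abundant and the most even of the set. *Vim* (chr2:13573927-13582826) was the 2nd most-read of the 23453 genes and supplied between 0.309% and 1.79% of the reads of a cell. The SD of its log2(normalized count + 1) over the 22 cells was 0.940, and only 2.67% of 11551 genes had a smaller SD, against a median of 2.73. The normalized counts in T-type cells 1 to 6 were 128103, 395460.0, 107808, 206958, 193144 and 204860. In S-type cells 1 to 6 they were 91258, 53299, 43167, 33128, 149932 and 37348. In these normalized counts only S-type cell 5 reached into the range of the T-type cells. In CPM S-type cell 1 did so too, at 6399.4 against 5850.7 in T-type cell 1.

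In M-type cells 1 to 5 the *Vim* counts were 134900, 207085, 103841, 96299 and 115575.0, and in NR cells 1 to 5 they were 163744, 59896, 80528, 42596 and 72942. Every M-type cell was above 4 of the 5 NR cells. The level of a type, the mean over its cells, was 206056 ± 101757 in T-type (SD, n = 6), 131540 ± 44672 in M-type (SD, n = 5), 83941 ± 46874 in NR (SD, n = 5) and 68022 ± 45260 in S-type (SD, n = 6). These SDs are spreads between cells. The T-type level was 3.03-fold that of S-type (log2 ratio 1.60, from 1.31 to 2.00 when each cell was left out) and 2.46-fold that of NR (1.30, from 1.00 to 1.69). Scaled as CPM, these log2 ratios were 1.01 and 0.77, and CPM also moved the median ratio of all genes, from -0.07 to -0.44 against S-type and from -0.05 to -0.45 against NR. Relative to the median gene, *Vim* stood at 1.67 or, in CPM, 1.46 against S-type, and at 1.35 or 1.22 against NR. The highest T-type value also depended on scaling, since T-type cell 2 had 8679.0 CPM against 17920 CPM in T-type cell 6. Mean CPM was 11985 in T-type, 11533 in M-type, 7029 in NR and 5931 in S-type cells, so T-type and M-type were close on that scale.

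*Gfap* (chr11:102887336-102900912) was read in 22 of 22 cells, or 19 after thinning all cells to 2937786 reads, and varied 8522.3-fold between them. In NR cells 1 to 5 it had 521.5, 11046, 2906, 746.4 and 62.1 normalized counts. In M-type cells 1 to 5 it had 2.50, 6788, 1133, 516.2 and 919.3. In S-type cells 1 to 6 the values were 6.21, 168, 246.7, 5159, 257.3 and 72.7, and in T-type cells 1 to 6 they were 144, 39.9, 43.6, 375.8, 1.30 and 917.2. One cell thus stood far above the others in the S-type, M-type and NR groups, and 4 of the 22 cells had fewer than 10 reads of this astrocyte gene (S-type cell 1, T-type cells 3 and 5, and M-type cell 1).

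The *Gfap* level was 3056 in NR, 1872 in M-type, 984.9 in S-type and 253.6 in T-type cells. It was 12.0-fold lower in T-type than in NR cells (log2 ratio -3.59), and it was lower, at -4.66 to -2.06, whichever cell was left out. Against S-type the T-type log2 ratio was -1.96, but it became 0.76 without S-type cell 4, which held 87.3% of the S-type level. S-type versus NR gave -1.63 (-4.35 to -0.10), and M-type versus NR gave -0.71 (-2.25 to 0.82). The T-type and NR cells overlapped, since T-type cell 6 was above 3 of the 5 NR cells. The summed astrocyte marker list, which does not hold *Gfap*, ranged from 3198.2 to 10641 CPM in T-type and from 1710.3 to 13401 CPM in NR cells, so its ranges overlapped as well.

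The proportion of the 2 main filament RNAs was then compared within each cell, where the scaling of the cell cancels. Per kilobase, *Vim* exceeded *Gfap* in every cell. The median log2 ratio of *Gfap* to *Vim* was -5.67 in NR, -6.80 in M-type, -8.49 in S-type and -10.37 in T-type cells, corresponding to 50.7, 111.8, 359.0 and 1320.4 times more *Vim* than *Gfap*. The range was -10.03 to -2.27 in NR and -17.02 to -7.63 in T-type cells. The closest approach of *Gfap* to *Vim* was in NR cell 2 and S-type cell 4. Over the 22 cells the Spearman correlation of the normalized counts of *Gfap* and *Vim* was -0.15 and 0.07 in CPM. Correlations are given without a p-value, since the cells share amplification and normalization and differ in depth.

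**Figure D2:**
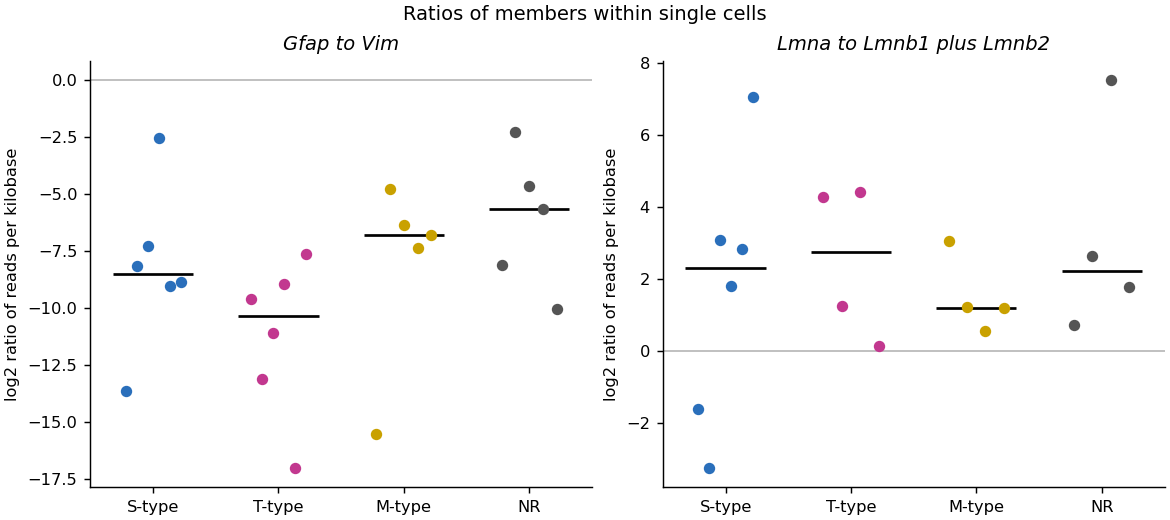
Log2 ratio of reads per kilobase within each cell, for *Gfap* to *Vim* (left) and for *Lmna* to the sum of *Lmnb1* and *Lmnb2* (right), with 1 point per cell, a line at the median of the type and 0 marking equal amounts. All *Gfap* to *Vim* points lie below 0, the T-type median is the lowest at -10.37, and S-type cells 1 and 2 are the only points below 0 on the right. Cells without a read of *Lmna* or of both *Lmnb1* and *Lmnb2* are not drawn on the right.

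Nestin, the filament protein of neural progenitors, was read in 22 of 22 cells. *Nes* (chr3:87971078-87980451) had 1949.5, 3021.9, 2161.7, 5770.8, 8745.1 and 3841.1 normalized counts in S-type cells 1 to 6 and 1280.9, 2115.7, 3317.3, 378.0 and 498.7 in NR cells 1 to 5. The S-type cells had 2.80-fold the NR level (log2 ratio 1.48), with 1.14 to 1.99 when each cell was left out, and 3 of the 5 NR cells were below every S-type cell. M-type cells 1 to 5 had 1579.6, 5085.6, 3089.6, 1297.5 and 4146.1, which gave 2.00-fold the NR level (0.74 to 1.51 on the log2 scale when each cell was left out). In T-type cells 1 to 6 the counts were 24915, 369.9, 1849.1, 167.8, 386.9 and 2682.3. T-type cell 1 alone held 82.0% of that level, and the T-type versus NR log2 ratio of 1.74 became -0.48 without it. Per kilobase, *Nes* exceeded *Gfap* in 16 of 22 cells.

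Synemin RNA spread more widely between cells than that of any other member. *Synm* (chr7:67730160-67759742) had no read in 5 cells and fewer than 5 reads in 7, whereas 6 cells had over 1000 normalized counts and the other 9 lay between. The SD on the log2 scale was 4.64, above that of 99.8% of genes. In T-type cells 1 to 6 the counts were 175.9, 0, 0, 4033, 0.648 and 1.28, so that T-type cell 4 supplied 95.8% of the level. In S-type cells 1 to 6 they were 296, 373, 368, 1425.2, 516.9 and 3061.2, and all 6 S-type cells had reads. M-type cells 1 to 5 had 0, 0, 670.4, 51.4 and 1530.2, and NR cells 1 to 5 had 574.9, 523.5, 2036.5, 0 and 4070.6. Zero reads allow up to 0.239 and 1.02 CPM in T-type cells 2 and 3, where the limit is 3 reads and covers counting error only. The same 17 cells had a *Synm* read count above 0 in 1 random thinning of all cells to 2937786 reads. T-type cells 5 and 6 had 1 and 2 reads before thinning, so another draw could leave them without a read. The T-type level was 2.05-fold lower than the NR level (-1.04) and ran from -5.34 to -0.16 when each cell was left out. With medians over the cells the log2 ratio was -9.22. M-type versus NR was -1.68 (-3.00 to -0.80).

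The mean levels of lamin A/C RNA were closer between the 4 types than the cells were within a type. The *Lmna* (chr3:88480147-88509956) level was 576.2 ± 573.1 in T-type (SD, n = 6), 520.7 ± 518.0 in S-type (SD, n = 6), 504.5 ± 306.5 in NR (SD, n = 5) and 454.5 ± 395.1 in M-type cells (SD, n = 5). The log2 ratios were 0.15 for the comparison of T-type with S-type cells, 0.19 for T-type versus NR, 0.05 for S-type versus NR and -0.15 for M-type versus NR, and they stayed between -0.85 and 0.89 when each cell was left out. With medians over the cells they were -0.97 for S-type versus NR and -1.08 for M-type versus NR. T-type cells 1 to 6 had 771.3, 0, 43.6, 589.2, 1566.3 and 486.8 normalized counts, and S-type cells 1 to 6 had 343.6, 163.7, 385.6, 335.5, 1566.4 and 329.5. T-type cell 2, with the fewest genes read (6319), was the only cell without an *Lmna* read. The 3 highest cells were S-type cell 5, T-type cell 5 and M-type cell 2. Their summed mural cell and fibroblast markers were 9436.7, 5053.2 and 3131.5 CPM, and across the 22 cells that sum and *Lmna* gave a Spearman correlation of 0.47 and a Pearson correlation of 0.53 (0.40 and 0.53 without the 2 farthest cells). In S-type cell 5 that sum was mostly *Acta2* (7388.8 CPM) and *Tagln* (2026.3 CPM). The same 3 cells also ranked high in a list of 30 cell cycle genes, at 2132.4, 8568.9 and 2537.0 CPM, for which the correlations with *Lmna* were 0.39 and 0.35 (0.66 and 0.62 without the 2 farthest cells). S-type cells 1 and 2, with the highest cell cycle sums, had only 343.6 and 163.7 counts of *Lmna*. Leaving out cells of this kind raises the correlation. With the median of its type subtracted from each cell, Spearman's value was 0.23 for the cell cycle list and 0.39 for the mural cell and fibroblast list. The part of other cell types and of the cell cycle in the *Lmna* level was not tested.

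Lamin B1 RNA, in contrast, was concentrated in a few cells. *Lmnb1* was read in 15 of 22 cells, including 5 of 6 S-type, 4 of 6 T-type, 4 of 5 M-type and 2 of 5 NR cells. After thinning to equal depth the counts were 4, 4, 4 and 2 cells. S-type cells 1 to 6 had 478.5, 772.8, 0, 45.5, 47.9 and 0.742 normalized counts, and T-type cells 1 to 6 had 0, 7.25, 5.46, 12.8, 378.5 and 0. M-type cells 1 to 5 had 13.1, 223.4, 57.7, 31.7 and 0, and NR cells 1 to 5 had 0, 54.5, 5.75, 0 and 0. Only S-type cells 1 and 2, T-type cell 5 and M-type cell 2 were above 100, and the other 18 cells had a median of 5.60 and a maximum of 57.7.

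The *Lmnb1* level was highest in S-type cells at 224.2, followed by T-type at 67.3, M-type at 65.2 and NR cells at 12.0. The S-type versus NR log2 ratio of 4.22 (18.6-fold) was between 3.25 and 7.28 when each cell was left out, and it was 0.97 when S-type cells 1 and 2 were left out together, a choice made after seeing the data. T-type versus NR was 2.48 and became -1.24 without T-type cell 5. M-type versus NR was 2.44 (1.09 to 5.50). T-type versus S-type was -1.74, and 1.52 without S-type cells 1 and 2.

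These 4 cells also had the highest sums of cell cycle genes. A list of 30 cell cycle genes that excludes the lamins, led by *Pcna*, *Rrm2* and *Top2a*, summed to 13473 CPM in S-type cell 1, 12587 in S-type cell 2, 8568.9 in T-type cell 5 and 2537.0 in M-type cell 2. The next cell was S-type cell 5 at 2132.4 CPM, which had an *Lmnb1* count of 47.9. S-type cell 5 was close to M-type cell 2 on this scale and far from it in *Lmnb1*, so that the list itself has no gap after the fourth cell, and the match of the 4 cells was noticed after their values were seen. Over all 22 cells, *Lmnb1* and the list gave a Pearson correlation of 0.79 and a Spearman correlation of 0.47. Without the 2 cells farthest from the median these were 0.63 and 0.29. With the median of its type subtracted from each cell, Spearman's value was 0.70. The part of cell cycle state in the type ratios of *Lmnb1* was not tested. S-type cells 1 and 2 are the highest in both measures, so leaving them out had to lower the S-type ratio.

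**Figure D3:**
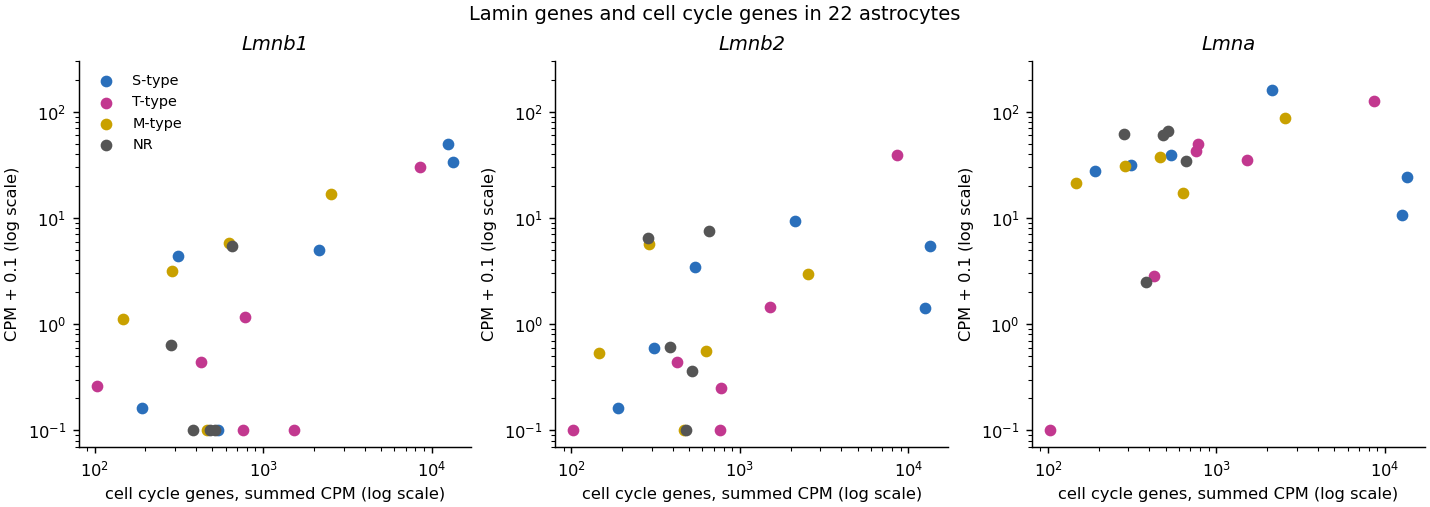
CPM plus 0.1 of *Lmnb1*, *Lmnb2* and *Lmna* against the summed CPM of 30 cell cycle genes, both on log scales, with 1 point per cell coloured by response type. The 4 cells farthest to the right are also the 4 highest in *Lmnb1*, whereas the pair with the most cell cycle reads (S-type cells 1 and 2) is below most other cells in *Lmna*.

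*Lmnb2* (chr10:80901203-80918245) was the least abundant of the lamins, with 1491 reads in all and reads in 18 cells, or 15 after thinning. Its values were 0.742 to 91.0 in S-type, 0 to 56.5 in M-type and 0 to 74.9 in NR cells. T-type cells 1 to 6 had 29.6, 0, 5.46, 1.82, 492.5 and 0, and T-type cell 5, the T-type cell rich in *Lmnb1*, held 93.0% of the level. The T-type versus S-type log2 ratio of 1.22 became -2.36 without that cell, and the T-type level, 2.83-fold that of NR, had a log2 ratio of -2.08 against NR without it. *Lmnb1* and *Lmnb2* had the highest Spearman correlation of the 28 pairs of members, 0.57. Within cells, *Lmna* exceeded each B-type gene per kilobase in 19 of 22 cells. The log2 ratio of *Lmna* to the sum of the B-type genes had medians of 2.76 in T-type (4 cells), 2.32 in S-type (6), 2.21 in NR (4) and 1.20 in M-type cells (4). T-type cell 6, NR cell 1 and M-type cell 5 had 760, 1202 and 824 *Lmna* reads and no B-type read. These cells have no ratio, so the medians omit cells from the high end and their order is not firm. T-type cell 2, without an *Lmna* read, is omitted too. It was below 0 only in S-type cells 1 and 2, at -1.61 and -3.24, among the 18 cells with reads on both sides.

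Plectin RNA was low in most cells, with a median of 36.8 normalized counts. *Plec* (chr15:76170974-76232574) had 436.8, 29.3, 21.3, 292.6, 425.9 and 72.7 normalized counts in S-type cells 1 to 6, and 15.0 to 68.6 in M-type cells. NR cells 1 to 5 had 139.6, 84.5, 338.7, 5.98 and 18.5. In T-type cells 1 to 6 the counts were 4.22, 0, 2367.3, 5.47, 36.3 and 7.04, so that 4 of the 6 were below 10. T-type cell 3, the library with the fewest reads, held 97.8% of the T-type level on 434 reads. Its T-type versus NR log2 ratio of 1.78 was -3.47 without that cell and -0.54 when the reads of each type were pooled as CPM. S-type versus NR was 0.86 (0.52 to 1.78), and M-type versus NR was -1.45 (-1.76 to -0.54).

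**Figure D4:**
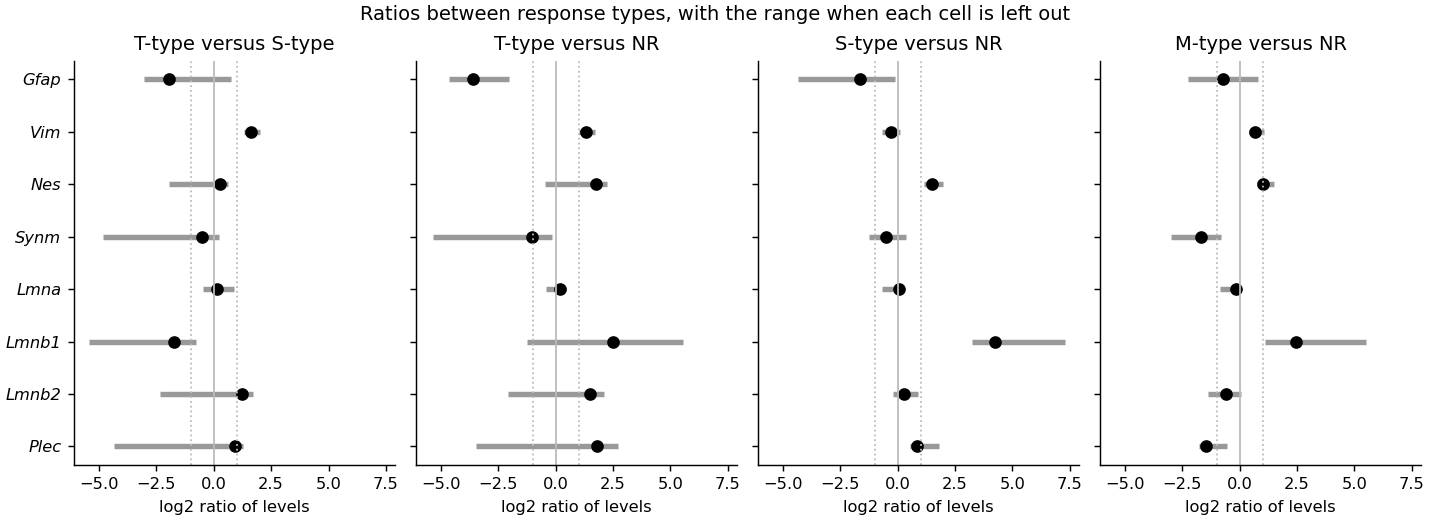
Log2 ratio of the levels of each gene between types (points) for the 4 comparisons, with grey bars from the lowest to the highest value when each cell was left out, and dotted lines at 2-fold. *Vim* has the shortest bar for T-type versus S-type (1.31 to 2.00), while the bars of *Nes*, *Lmna*, *Lmnb1*, *Lmnb2* and *Plec* for T-type versus NR cross 0.

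The members were set against all tested genes, because large ratios are common between groups of so few cells. For T-type versus S-type, 2 members (*Vim* and *Lmnb2*) were at least 2-fold higher, as were 26% of genes, and 2 (*Gfap* and *Lmnb1*) were at least 2-fold lower, as were 32.2% of genes. For T-type versus NR, 5 members (*Vim*, *Nes*, *Lmnb1*, *Lmnb2* and *Plec*) were higher, against 28.6% of genes, and 2 (*Gfap* and *Synm*) were lower, against 32.4%. For S-type versus NR, *Nes* and *Lmnb1* were higher, against 25.1% of genes, and *Gfap* was lower, against 22.4%. For M-type versus NR, *Nes* and *Lmnb1* were higher, against 19.8%, and *Synm* and *Plec* were lower, against 28.1%. The last 3 comparisons share the NR cells. The median log2 ratio of the 8 genes was 1.40 for T-type versus NR, 0.16 for S-type versus NR, -0.36 for M-type versus NR and 0.20 for T-type versus S-type, and over all genes it was -0.05, 0.03, -0.20 and -0.07.

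For no member did the cells of 2 types separate completely. Over all genes such separation occurred in 0.991% for T-type versus NR, 0.409% for S-type versus NR, 0.598% for M-type versus NR and 0.771% for T-type versus S-type. By the shares past 2-fold given before, the counts of members in most directions were near those of other genes. The clearest exception was the 5 of 8 members higher for T-type versus NR, against 28.6% of genes. They include 4 whose ratio reversed without 1 T-type cell (*Nes*, *Lmnb1*, *Lmnb2* and *Plec*).

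Other cytoplasmic filament genes were sparse. Of 19 such genes, 6 had no read (*Bfsp1*, *Krt7*, *Krt8*, *Krt19*, *Krt23* and *Krt80*) and 4 had reads in at least 5 cells. These were *Sync*, which encodes syncoilin, *Krt10*, a keratin of the epidermis, and the orphan genes *Iffo1* and *Iffo2*. For T-type versus NR 1 of the 4 was at least 2-fold higher (*Krt10*, 3.57 on the log2 scale), against 28.6% of all genes, and 2 were lower (*Sync*, -1.06, and *Iffo2*, -1.94), against 32.4%. For M-type versus NR 3 of the 4 (*Sync*, *Iffo1* and *Iffo2*) were higher, against 19.8% of all genes, and M-type cell 1 held 63.7%, 54.6% and 55.1% of their M-type levels. T-type cell 4, the T-type cell with the most *Synm*, held 97.5% of the T-type level of *Sync* and 98.3% of that of *Iffo2*.

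In all, 7 of 10 plakins and other cytolinkers passed the filter. The largest levels were those of *Macf1*, which links actin to microtubules, at 10325 in T-type, 9798.2 in S-type, 8282.7 in M-type and 5297.9 in NR cells. *Dst*, which encodes dystonin, was read in 22 cells with a T-type versus NR log2 ratio of 0.19, and *Pkp4*, a plakophilin, had -1.48. For T-type versus NR the list had 3 genes at least 2-fold higher, against 28.6% of all genes, and 1 lower, against 32.4%, with a median of 0.96 where that of all genes was -0.05. T-type cell 3 held 65.3% of the T-type level of *Macf1* and 88.5% of that of *Dst*, in addition to its share of *Plec*.

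At the nuclear envelope, 16 of 17 partners of lamins passed the filter and their median log2 ratio was -0.06 for T-type versus NR, -0.07 for S-type versus NR, -0.43 for M-type versus NR and -0.23 for T-type versus S-type. For S-type versus NR 3 of the 16 were at least 2-fold higher, which is a smaller share than the 25.1% of all genes, and none was lower, against 22.4%. These were *Tmpo*, which encodes the lamina-associated protein LAP2 (2.60), *Lbr*, the lamin B receptor (2.23), and *Banf1*, a chromatin-binding partner of LEM-domain proteins (1.34). All 3 were also above NR in the other types. In T-type and M-type cells the ratios were 2.40 and 1.61 for *Tmpo*, 0.80 and 1.30 for *Lbr*, and 1.72 and 1.12 for *Banf1*. S-type cell 2 held 47.4% of the S-type level of *Tmpo*, and S-type cell 1 held 41.25% of that of *Lbr*. *Tmem43* and *Sun1*, both inner membrane proteins, had -0.23 and -0.86 for S-type versus NR. Of the 5 enzymes that process prelamins, 0 were at least 2-fold higher for T-type versus NR, against 28.6% of all genes. Only *Icmt* (-2.17) was lower, against 32.4%, and NR cell 1 held 79.9% of its NR level. *Fnta* and *Zmpste24*, the subunit of the farnesyltransferase and the prelamin A protease, had -0.81 and -0.68.

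Kinases that phosphorylate filaments included 3 of 10 that were at least 2-fold higher in S-type than in NR cells, against 25.1% of all genes, and these were the mitotic kinases *Aurkb* (5.60), *Plk1* (3.57) and *Cdk1* (3.26). None was lower. S-type cell 1 held 90.1% of the S-type level of *Plk1*, and S-type cell 2 held 61.2% of that of *Aurkb* and 51.3% of that of *Cdk1*. All 3 are also in the cell cycle list, of which 30 of 30 genes were at least 2-fold higher for S-type versus NR, against 25.1% of all genes, so they add nothing to it. That count compares means, to which S-type cells 1 and 2 add most. S-type cells 3, 4 and 6 had sums of the list of 538.7, 310.6 and 189.8 CPM, none above the NR range of 283.8 to 657.5 CPM. The count is therefore not a trait of every S-type cell. *Rock2* had the most reads of the kinases and a T-type versus NR log2 ratio of 1.30, and T-type cell 2 held 74.0% of its T-type level. Of the 5 chaperones, *Hspb8*, *Bag3* and *Cryab*, a small heat shock protein that binds GFAP filaments, had log2 ratios of -0.64, -1.06 and 0.43 for T-type versus NR. The 1 chaperone at least 2-fold higher there, against 28.6% of all genes, was *Hspb1* (4.68). T-type cell 2 held 94.3% of its T-type level. *Bag3* was the 1 that was lower, against 32.4%.

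Genes whose pattern over the 22 cells was most like that of a member were ranked by Spearman's correlation among 11550 genes with a mean level of at least 10. For *Gfap* they were *Smcr8* (0.82), *Cadps* (0.82) and *Ston2* (0.79). For *Vim* they were *Mir703* (0.80), *Cfdp1* (0.77) and *Rps7*, a ribosomal protein gene (0.76). For *Lmnb1* they were *Ncapg2*, a condensin subunit (0.85), *Trim59* (0.83) and *Fignl1* (0.82). No other member was among them. These are the highest of 11550 values over 22 cells, a choice that by itself favours high correlations. In CPM the values, in the same order, were 0.83, 0.85 and 0.78 for *Gfap*. They were 0.82, 0.68 and 0.67 for *Vim*, and 0.89, 0.79 and 0.85 for *Lmnb1*.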

How the data were processed

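RNA of 22 single astrocytes (5 NR, 5 M-type, 6 S-type and 6 T-type) was measured. The authors amplified antisense RNA in 2 rounds, made stranded libraries, sequenced paired reads of 75 bases, trimmed them, used STAR for alignment to GRCm38, and had VERSE count the uniquely placed exonic reads, VERSE being a modified HTSeq. Versions and the strand setting are not given in the sources used here. The deposited file holds raw counts in a column for each cell. Molecular identifiers were not used, so counts are amplified reads and limits from counts cover counting error only.

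Each count was divided by the size factor of its cell, found as the median of ratios over 3670 genes with a read in every cell (Python 3.11.15, NumPy 2.4.6, pandas 2.3.3, SciPy 1.17.1). A level was the mean over the cells of a type, with a floor of 3 reads for a type without a read. A gene had to have a read in at least 5 cells. Leaving out a cell kept the size factors of all 22 cells. Alternatives were CPM, TMM factors (edgeR 4.0.16 in R 4.3.3), pooled CPM, medians over cells, cells thinned to 2937786 reads, another floor and other filters. Depth ran from 2937786 to 22131076 reads, so 3 reads equal 0.136 to 1.02 CPM.

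The source animal and culture of the cells are not named in the labels or methods, so each type was 1 sample and no test, p-value or standard error between types was computed. The scripts were tested on simulated data. Exon lengths and positions came from GENCODE vM21, on the build of the alignment, and sequences of the members are not reported here. Members and gene lists were chosen with earlier results of these data known. The text names the 8 members, the 3 genes most like *Gfap*, *Vim* and *Lmnb1*, and, for the lists of filament partners and the cell cycle, 2 to 4 of the most-read genes of each. Marker genes read in every cell or in none, the unread filament genes, *Pkp2*, *Nde1*, *Banf1*, *Icmt*, *Aurkb*, *Plk1*, *Cdk1* and *Hspb1* were named outside this rule, after their values were seen.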

Additional observations from a re-analysis of the deposited data

Results flagged for a closer look

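Within a type, a single cell stood apart from the others by Dixon's criterion in 14 of the 40 groups of values tested. Chance flags about 1 in 20 groups of normally distributed values, a rate that does not hold for these skewed counts, and the groups are not independent because several genes were high in the same cell. All but the last are normalized counts of the highest cell of a type.

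*Gfap* was flagged at 5158.5 in S-type cell 4 (the next cell had 257.3), at 6787.8 in M-type cell 2 (next 1133.2) and at 11045.9 in NR cell 2 (next 2905.9). *Vim* was flagged at 395460.0 in T-type cell 2 (next 206958.1), a cell that in CPM was below 3 other T-type cells. *Nes* was flagged at 24915.2 in T-type cell 1 (next 2682.3) and *Synm* at 4033.1 in T-type cell 4 (next 175.9). *Lmna* was flagged at 1566.4 in S-type cell 5 (next 385.6) and at 1151.1 in M-type cell 2 (next 356.0).

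*Lmnb1* was flagged at 378.5 in T-type cell 5 (next 12.77), at 223.4 in M-type cell 2 (next 57.67) and at 54.45 in NR cell 2 (next 5.753). *Lmnb2* was flagged at 492.5 in T-type cell 5 (next 29.56), and *Plec* at 2367.3 in T-type cell 3 (next 36.29). The lowest log2 ratio of *Gfap* to *Vim* in an M-type cell, -15.55 in cell 1 (next -7.37), was flagged on 4 reads of *Gfap*. M-type cell 2 was thus flagged for *Gfap*, *Lmna* and *Lmnb1*, NR cell 2 for *Gfap* and *Lmnb1*, and T-type cell 5 for both B-type lamins. The causes were not tested.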

How the results depend on the processing

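Of 544 log2 ratios of single members recomputed under an alternative, 13 reversed, a label kept for ratios that had been at least 2-fold. Another 526 moved by less than the spread between cells and 5 by more. Changes of sign in ratios under 2-fold are among the 526 and the 5. *Nes* for T-type versus S-type, for example, went from 0.25 to -1.96 without T-type cell 1. Of 136 counts and within-cell ratios, 132 were called unchanged. For counts this call allowed a moderate change, such as 6 members in place of 4 for T-type versus S-type without T-type cell 1. The number of members past 2-fold was 7 (1 higher and 6 lower) in place of 4 (2 higher and 2 lower) for T-type versus S-type and 5 in place of 3 for S-type versus NR with medians over the cells in place of means, and 4 in place of 7 for T-type versus NR in CPM. When each cell was left out it ran from 3 to 6, from 2 to 5 (5 without S-type cell 6), from 5 to 7 and, for M-type versus NR, from 3 to 5.

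With medians, *Lmnb2* reversed to -2.89 for T-type versus S-type and to -1.20 for T-type versus NR, *Nes* to -0.20 and *Plec* to -3.76 for T-type versus NR. For T-type versus NR medians gave 2 members higher and 4 lower, in place of 5 and 2, and *Lmna* against NR was -1.08 in M-type and -0.97 in S-type cells. For *Synm* medians gave -9.22 for T-type versus NR and -8.85 for T-type versus S-type, in place of -1.04 and -0.52. *Plec* for T-type versus S-type went from 0.92 to -4.87 with medians and to -4.33 without T-type cell 3. A median passes over a single high cell by construction. *Plec* for T-type versus NR also reversed to -0.54 in pooled CPM, to -3.47 without T-type cell 3 and to -3.15 without T-type cells 2 and 3, which had the smallest size factors (chosen after seeing the data). When each cell was left out, the T-type ratio to S-type ran from -2.36 (without T-type cell 5) to 1.69 for *Lmnb2* and from -3.03 to 0.76 (without S-type cell 4) for *Gfap*. The T-type ratio to NR ran from -2.08 to 2.12 for *Lmnb2* and from -1.24 to 5.55 for *Lmnb1* (lowest without T-type cell 5), from -0.48 (without T-type cell 1) to 2.24 for *Nes* and from -3.47 to 2.70 for *Plec*. Against S-type, *Lmnb1* was 1.52 without S-type cells 1 and 2 (chosen after seeing the data).

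The median log2 ratio of *Gfap* to *Vim* when each cell was left out ran from -11.10 to -9.63 in T-type, -8.84 to -8.14 in S-type, -7.09 to -6.58 in M-type and -6.90 to -5.14 in NR cells, and that of *Lmna* to the B-type lamins from 1.26 to 4.26, 1.79 to 2.84, 1.18 to 1.23 and 1.78 to 2.64. No paired analysis was possible because no test was run and the labels do not pair the cells of different types. Thinning all cells to equal depth took the reads of *Gfap* from 3 cells, of *Lmnb2* from 3, and of *Lmnb1* and *Plec* from 1 each.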
